A study of Rattus norvegicus with 8 samples.

Results

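The hippocampus of PTZ-kindled rats that had received the anticonvulsant Q808 was compared with that of vehicle rats, gene by gene. The Q808 group held 2 libraries and the Con. group 3, which are 5 of the 8 libraries of the series, and of 22601 genes, 15593 averaged at least 0.1 FPKM across all 8 libraries and were tested. FPKM (fragments per kilobase of transcript, scaled to the mapped fragments) is a level per transcript length, so that genes can be compared with each other. All animals were wild-type Wistar rats that weighed 180 to 220 g when purchased, before the treatments, and each library came from 1 rat. Rats of the Q808 group were kindled by repeated sub-convulsive injections of pentylenetetrazole (PTZ) and a stronger last dose, were then given Q808 by gavage every day for weeks, and received a further sub-convulsive PTZ injection before the hippocampus was taken. Rats of the Con. group received saline and then the solvent of Q808. The PTZ group (3 libraries) was kindled in the same way and given the solvent, and its values are printed beside those of some genes. Kindling, Q808 and the last PTZ injection all separated the Q808 group from the Con. group, and their parts in a difference cannot be told apart here.

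PTZ blocks GABA-A receptors, the chloride channels through which GABA inhibits neurons, and repeated small doses lower the seizure threshold lastingly. Seizures switch on immediate early genes in neurons within an hour, activate astrocytes and microglia, and open the blood-brain barrier, which is built by endothelial cells, mural cells (pericytes and smooth muscle cells of the vessel wall) and the basement membrane between them. Bulk tissue holds all of these cells at once, and in bulk RNA more cells of a type and more RNA per cell cannot be told apart.

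The 5 libraries differed in markers of brain regions. Ppp1r1b, which encodes DARPP-32 of striatal projection neurons, measured 42.1, 47.7 and 755 FPKM in Con.-1, Con.-2 and Con.-3, and 386 and 40.1 FPKM in Q808-1 and Q808-2. The mean log2(FPKM + 0.1) of 10 striatal markers was 7.49 in Con.-3 and 6.24 in Q808-1, and 2.03 to 2.90 in Con.-1, Con.-2 and Q808-2. C1ql2, a marker of dentate granule cells, ran the other way, at 79.5, 82.1 and 4.46 FPKM in Con. and 3.23 and 50.6 FPKM in Q808, so that this defining marker of the hippocampus was low in Con.-3 and Q808-1. Ttr, the transthyretin of the choroid plexus, measured 2495, 2462 and 87.4 FPKM in Con. and 156 and 6301 FPKM in Q808. Con.-3 and Q808-1 are called high-striatum libraries below and the other 3 low-striatum libraries. Counts are given with this division as a block in the fit (a term for the set), and for the low-striatum libraries alone. Steps between low FPKM values put the depth of Con.-2, Con.-3, Q808-1 and Q808-2 at 1.19, 0.991, 0.867 and 1.04 times that of Con.-1. Spearman correlations between the libraries were 0.942 to 0.988.

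The lists with the largest shares of genes away from the vehicle level were those of red blood cells, mural and endothelial cells, inflammation, extracellular matrix, glucocorticoid-induced genes and complement, with no member called lower in any of these, while few genes of neurons passed the test. To be called, a gene needed both an unadjusted p-value under 0.05 in limma and a difference of more than 1.5-fold. By this rule Q808 libraries were higher in 479 genes and lower in 61, 540 or 3.46% of the genes tested (3.07% higher and 0.391% lower). In 13210 genes (84.7%) the difference was within 1.5-fold, and the median log2 difference of all genes was 0.04. An unadjusted p-value under 0.05 was reached by 667 genes, which is 4.28% of those tested. After Benjamini-Hochberg adjustment in limma 1 gene passed 0.05, and the adjusted p-values of the other 539 called genes lay between 0.194 and 0.901. After quantile normalization, with the set block and in the low-striatum libraries alone 2.75%, 6.53% and 4.71% of the genes were called. The calls below are therefore a ranking by unadjusted p-value.

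The gene that passed was GeneID100910575, annotated as similar to the serine-threonine kinase receptor-associated protein, which measured 10.6, 11.2 and 12.1 FPKM in Con. and 0.577 and 0.724 FPKM in Q808. The log2 difference was -3.93 (SE 0.21), with an adjusted p-value in limma of 0.0454 that ranged from 0.00924 to 0.995 over the alternatives. In the PTZ group this gene measured 19.4, 0.788 and 7.42 FPKM, from near the Q808 values to above the Con. range. Its named relative Strap measured 53.9, 50.6 and 41.6 FPKM in Con. and 39.3 and 47.5 FPKM in Q808 and was not called. Reads of such near-identical genes may have been divided between them in the counting, so the level of GeneID100910575 is uncertain.

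Bad, which encodes a cell death agonist of the Bcl2 family, was called with the smallest p-value among the higher genes. It measured 3.65, 4.10 and 3.99 FPKM in Con. and 17.6 and 30.1 FPKM in Q808, a log2 difference of 2.53 (SE 0.26, unadjusted p = 0.000113). The PTZ libraries were also far above Con., at 27.6, 24.1 and 17.0 FPKM. None of the other 15 tested genes of the Bcl2 family and apoptosis list was called. Cdkn1a, the p21 inhibitor of cyclin-dependent kinases, stood at 8.15, 7.31 and 6.94 FPKM in Con. and 24.5 and 20.5 FPKM in Q808, a log2 difference of 1.58 (SE 0.17, unadjusted p = 0.000126). In PTZ it measured 24.2, 29.0 and 9.05 FPKM. Maff, a small MAF transcription factor induced by stress, was at 0.261, 0.464 and 0.556 FPKM in Con. and 2.91 and 2.63 FPKM in Q808, and it stayed called in all 19 alternative fits, as did Bad and Cdkn1a. Hrct1, a small histidine-rich protein, rose from 1.26, 0.836 and 0.911 FPKM in Con. to 4.48 and 3.48 FPKM in Q808, and in PTZ it was at 0.668, 0.325 and 3.17 FPKM.

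**Figure D1:**
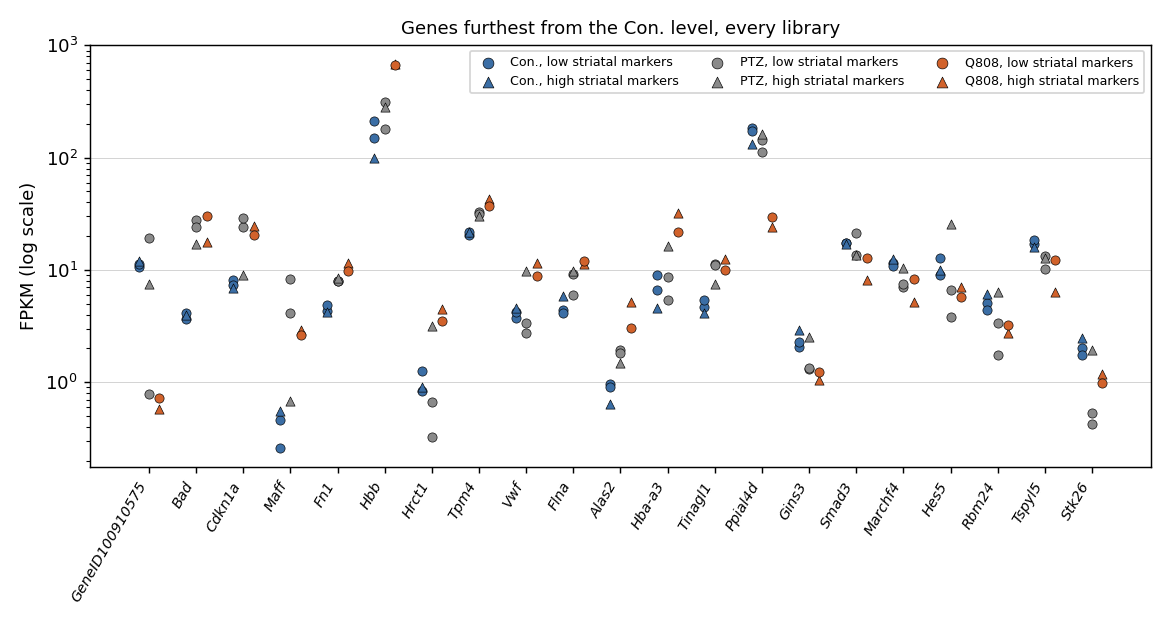
FPKM on a log axis in every library for the gene with an adjusted p-value under 0.05 and the 12 higher and 8 lower genes of the Q808 group with the smallest p-values, with 3 Con., 3 PTZ and 2 Q808 libraries per gene and triangles for the libraries with high striatal markers. Both Q808 libraries lie outside the range of the 3 Con. libraries for every gene shown, as with Bad at 17.6 and 30.1 FPKM against 3.65 to 4.10. This was a condition for choosing the 12 higher and 8 lower genes, and 20% of all genes tested had it.

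Shown here are 3 promoters, of Nfkbia, Il1r1 and Socs3, since these genes of the inflammatory list were called higher and carry a match to the NF-kB site, the motif bound by the factor that switches on such genes. Nfkbia encodes the inhibitor that NF-kB induces against itself, Il1r1 the receptor of interleukin 1, and Socs3 a suppressor of cytokine signaling. The 250 bases before each gene start are given 5′ to 3′ from RefSeq on GRCr8, a build used here only for names and sequences, at chr6:78597073-78597322 (minus strand) for Nfkbia, chr9:50034133-50034382 (plus strand) for Il1r1 and chr10:103694769-103695018 (minus strand) for Socs3. Capitals mark the match.
Nfkbia: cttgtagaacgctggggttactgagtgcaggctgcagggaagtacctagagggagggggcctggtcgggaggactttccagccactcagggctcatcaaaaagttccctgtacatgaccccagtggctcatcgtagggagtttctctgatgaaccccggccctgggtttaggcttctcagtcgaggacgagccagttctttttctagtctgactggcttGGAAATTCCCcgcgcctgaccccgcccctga
Il1r1: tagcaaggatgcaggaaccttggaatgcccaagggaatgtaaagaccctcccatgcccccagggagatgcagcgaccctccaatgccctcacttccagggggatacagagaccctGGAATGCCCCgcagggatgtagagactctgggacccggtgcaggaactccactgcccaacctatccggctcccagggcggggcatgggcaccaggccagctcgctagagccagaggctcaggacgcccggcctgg
Socs3: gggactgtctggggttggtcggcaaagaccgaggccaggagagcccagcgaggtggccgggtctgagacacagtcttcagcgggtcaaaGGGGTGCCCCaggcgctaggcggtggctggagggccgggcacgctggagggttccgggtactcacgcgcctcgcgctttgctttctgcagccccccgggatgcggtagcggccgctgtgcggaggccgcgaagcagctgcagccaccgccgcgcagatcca

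The matches begin 31, 135 and 161 bases before the gene start. In windows of 250 bases before to 50 after the start, 33 of 341 promoters of genes called higher held the NF-kB site on either strand (9.68%), against 611 of 12239 promoters of the genes tested (4.99%) and 1142 of all 27457 promoters (4.16%). The CArG box of serum response factor was found in 1.17% of the promoters of genes called higher and 1.23% of the tested promoters. For the cAMP response element (TGACGTCA) these shares were 1.47% and 2.99%. Of 46 promoters of genes called lower, 1 held the NF-kB site, 1 the CArG box and 0 the cAMP response element. On the inflammatory list 7 of 13 promoters held the NF-kB site, and 3 of the 6 promoters of its called genes did. Il6, Lcn2, Nfkb2 and Tnfaip3 also held it and were not called. In 2 other lists the motif looked for was absent from the called genes. The CArG box was in 0 of 6 promoters of mural cell markers, 3 of them called. The cAMP response element was in 3 of 11 promoters of immediate early genes, and the 1 called gene among them lacked it. These shares are descriptions without a test, and a match is not a site of binding.

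Of the 17 tested inflammatory genes 7 were called higher and none lower, with a median log2 difference of 0.62 beside 0.04 for all genes. Nfkbia measured 15.3, 20.7 and 18.7 FPKM in Con. and 44.7 and 32.0 FPKM in Q808, a log2 difference of 1.06 (SE 0.22, unadjusted p = 0.00345). Il1r1 stood at 0.704, 1.14 and 0.636 FPKM in Con. and 2.22 and 2.29 FPKM in Q808, a log2 difference of 1.39 (SE 0.33, unadjusted p = 0.0069). Socs3 was at 0.359, 0.534 and 0.390 FPKM in Con. and 1.15 and 0.904 FPKM in Q808, below the PTZ values of 4.69, 6.46 and 1.03 FPKM. Ccl2, the chemokine that attracts monocytes, was listed at 0 in Con.-1 and Con.-2 and at 0.0908 FPKM in Con.-3, against 0.415 and 0.521 FPKM in Q808 and 0.916, 0.892 and 0.105 FPKM in PTZ. Icam1, the adhesion molecule that leukocytes bind, the oncostatin M receptor Osmr and the protease inhibitor Timp1 were called as well. The cytokines themselves were near the floor, with Il1b at 0.0535 to 0.162 FPKM in Con. and 0.0617 and 0.0515 FPKM in Q808, and Il6 at 0.0678 to 0.134 and 0.233 and 0.194 FPKM, and neither was called. All 7 called genes were also called in PTZ against Con., a comparison that uses the same Con. libraries. Over all lists and other genes, 95 of the 540 called genes were called in both comparisons. In that comparison 2.53% of the genes tested were called, 1.69% higher and 0.84% lower. The count was 4 without Con.-2 and 4 in the low-striatum libraries alone.

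Of 14 tested complement genes 5 were called higher, with a median log2 difference of 0.64. The C5a receptor gene C5ar1 was at 0.521, 0.607 and 0.485 FPKM in Con. and 1.34 and 1.35 FPKM in Q808, a log2 difference of 1.19 (SE 0.29, unadjusted p = 0.00709). Cfb, which forms the convertase of the alternative pathway, stood at 4.20, 3.03 and 2.96 against 5.98 and 6.56 FPKM. C2 and C4b of the classical pathway were also called, and C1qa, C1qb and C1qc, which microglia make, were not, at unadjusted p-values of 0.0806, 0.0611 and 0.0982. None of the complement genes was called in PTZ against Con. The count was 3 without Con.-2, 3 after quantile normalization, and 8 with the set block.

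Of 12 microglial markers 2 were called, Aif1 (IBA1) at 10.6, 9.76 and 8.58 FPKM in Con. and 22.5 and 12.3 FPKM in Q808, and Itgam (CD11b) at 2.87, 2.85 and 2.85 FPKM in Con. and 6.47 and 3.64 FPKM in Q808. All 12 had a difference above 0 and their median log2 difference was 0.63, and the Q808-1 library was the higher of both in every gene of the list, as in Csf1r at 49.0 against 24.5 FPKM. With Q808-1 left out no marker was called, none was without Con.-2, and 10 were with Q808-2 left out. Interferon-stimulated genes were called in 3 of 14 cases (Ifitm3, Ifit3 and Ifit2, which restrict viruses), with a median log2 difference of 0.36, and 1 of them was called after quantile normalization. Of 17 tested MHC and antigen processing genes, RT1-A2 and RT1-M6-1 were called, and both belong to a family of near-identical class I genes whose reads may be divided between copies.

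**Figure D2:**
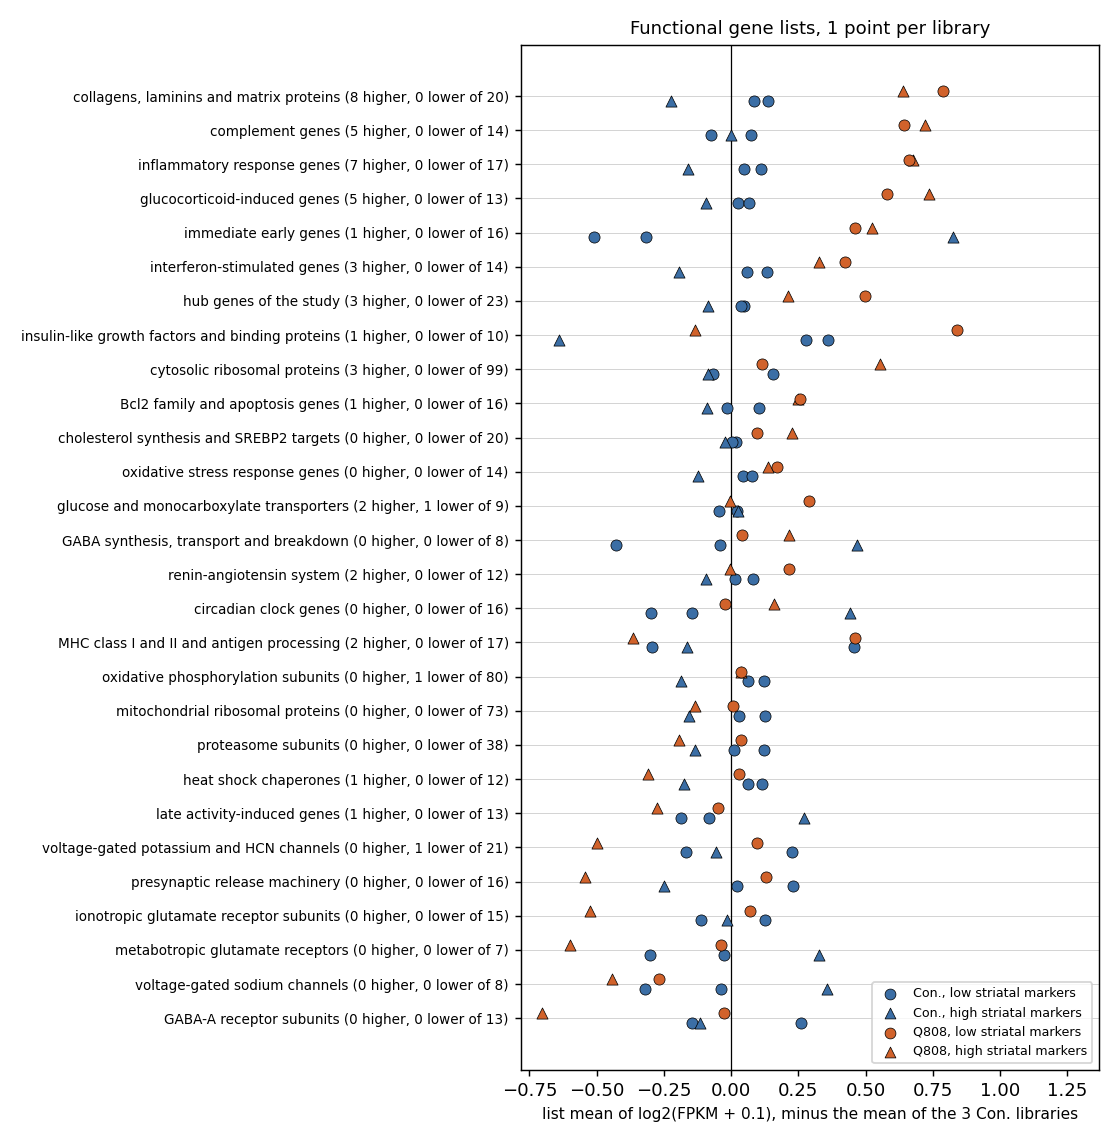
Mean log2(FPKM + 0.1) of each functional gene list in 3 Con. and 2 Q808 libraries, minus the mean of the Con. libraries, with triangles for the high-striatum libraries and the number of genes called beside each name. Both Q808 libraries lie above all Con. libraries for the matrix, complement, inflammatory and glucocorticoid-induced lists. The same holds for the interferon-stimulated, cholesterol synthesis, oxidative stress, Bcl2 family and hub gene lists. For the lists of receptors and channels Q808-1 lies lowest.

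Erythroid genes were furthest from the vehicle level of all 45 lists: 8 of 9 tested genes were called higher, with a median log2 difference of 1.93. Hbb, the beta chain of hemoglobin, measured 213, 148 and 100.1 FPKM in Con. and 685 and 668 FPKM in Q808, a log2 difference of 2.20 (SE 0.34, unadjusted p = 0.000878), and 313, 179 and 281 FPKM in PTZ. Hba-a1, an alpha chain, stood at 500.4, 263 and 180.3 FPKM in Con. and 1349 and 679 FPKM in Q808. Alas2, the erythroid enzyme that starts heme synthesis, was at 0.973, 0.913 and 0.641 FPKM in Con., 5.22 and 3.03 FPKM in Q808 and 1.94, 1.82 and 1.49 FPKM in PTZ. Slc4a1, the anion exchanger of the red cell membrane, was at 0.0469, 0.0395 and 0.0631 FPKM in Con. and 0.595 and 0.302 FPKM in Q808. Hbb-b1 was the exception to separate groups, with Q808-2 at 41.4 FPKM below Con.-1 at 43.5 FPKM. Hbe1 was listed at 0 in every Con. library and at 0.182 and 0.458 FPKM in Q808, and without it the median was 1.87 over 8 genes. The globin genes are near-identical copies, and how their reads were divided is uncertain. The count was 5 without Con.-2, 5 without Q808-1 and 5 in the low-striatum libraries alone, and 8 after quantile normalization. Other products of blood, chosen after their values were seen, were higher too: the platelet chemokine Pf4 measured 1.77, 1.86 and 2.00 FPKM in Con. and 7.13 and 4.47 FPKM in Q808, and albumin (Alb) 2.35, 1.80 and 2.12 against 5.14 and 3.99 FPKM. Cd163, the hemoglobin scavenger receptor of macrophages, was at 0.108, 0.0999 and 0.0218 FPKM in Con. and 0.672 and 0.458 FPKM in Q808, also chosen after its values were seen. The part of blood left in the tissue in these differences was not tested.

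Of 9 mural cell markers 5 were called higher and the median log2 difference of the list was 1.03. All 5 encode contractile or filament proteins of smooth muscle. Tagln (transgelin) measured 19.7, 20.5 and 14.2 FPKM in Con. and 38.5 and 49.8 FPKM in Q808 (log2 difference 1.28, SE 0.22, unadjusted p = 0.00164). Acta2, smooth muscle actin, was at 7.75, 11.96 and 4.77 FPKM in Con. and 20.9 and 25.3 FPKM in Q808. Myh11, its myosin heavy chain, stood at 3.15, 3.22 and 1.99 against 4.71 and 8.27 FPKM, and Cnn1 and Des were called as well. In Tagln, Acta2 and Myh11 the PTZ-3 library, with 61.9 FPKM of Tagln and 26.9 FPKM of Acta2, was above both Q808 libraries, and PTZ-1 and PTZ-2 lay within the Con. range. Cnn1 (calponin) differed from these, at 0.0484, 0.204 and 0.0488 FPKM in Con., 0.391 and 1.54 FPKM in Q808 and 0.268, 0.392 and 1.47 FPKM in PTZ, and it was also called in PTZ against Con. The pericyte markers Pdgfrb, Rgs5, Kcnj8 and Abcc9 were not called, with unadjusted p-values between 0.0843 and 0.533. Without Con.-1 the count was 3. Actin-binding proteins outside the list went the same way: Flna (filamin A) measured 4.36, 4.12 and 5.80 FPKM in Con. and 11.4 and 11.9 FPKM in Q808, and Tpm4 (tropomyosin 4) 20.6, 21.7 and 21.9 against 43.1 and 36.9 FPKM. Vcl (vinculin), Cald1 (caldesmon), Myl9, Tpm2 and Actg2, named after their values were seen, were also called higher.

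Of 12 endothelial markers 5 were called higher, with a median log2 difference of 0.71. Vwf, the von Willebrand factor that endothelial cells store for clotting, measured 3.76, 4.21 and 4.57 FPKM in Con. and 11.4 and 8.90 FPKM in Q808 (log2 difference 1.26, SE 0.20, unadjusted p = 0.00112). Tie1, an endothelial receptor tyrosine kinase, was at 4.66, 3.94 and 5.89 FPKM in Con. and 10.7 and 7.72 FPKM in Q808. Cldn5, the tight junction claudin of the blood-brain barrier, stood at 49.5, 46.7 and 46.0 FPKM in Con. and 97.2 and 56.8 FPKM in Q808, and Esam and Tek were called as well. In all 12 markers Q808-1 was above every Con. library, and Q808-2 was below the highest Con. library in Flt1 and Emcn, among others. The count was 1 without Q808-1, 11 without Q808-2, 2 without Con.-1, 2 without Con.-2, 3 without Con.-3 and 2 in the low-striatum libraries alone. Slc2a1, the glucose transporter GLUT1 of the barrier, measured 50.2, 52.1 and 58.7 FPKM in Con., 130.6 and 72.2 FPKM in Q808 and 94.5, 105 and 84.5 FPKM in PTZ, and was called higher.

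Of 20 genes for collagens, laminins and other matrix proteins, 8 were called higher and none lower, with a median log2 difference of 0.75. Fn1 (fibronectin) measured 4.29, 4.91 and 4.22 FPKM in Con. and 11.5 and 9.75 FPKM in Q808, a log2 difference of 1.23 (SE 0.18, unadjusted p = 0.000735), with 7.91, 8.02 and 8.43 FPKM in PTZ. Vtn (vitronectin) was at 9.63, 12 and 9.05 FPKM in Con. and 18.8 and 24.2 FPKM in Q808. The type VI collagen gene Col6a1 stood at 5.98, 6.25 and 5.89 against 10.7 and 10.2 FPKM, and Lamb2, a laminin chain of vessels and synapses, at 11.2, 10.7 and 11.2 against 17.3 and 18.4 FPKM. The other 4 were Col4a1, Nid1, Hspg2 and Spp1, of which the first 3 belong to the basement membrane. Tinagl1, another basement membrane protein, measured 4.67, 5.38 and 4.14 FPKM in Con. and 12.4 and 10.04 FPKM in Q808. Meningeal fibroblast markers were called in 2 of 11 cases, Bgn (biglycan) at 11.0, 9.35 and 11.5 against 19.4 and 20.2 FPKM and Serpinf1 at 3.58, 4.02 and 3.51 against 5.28 and 10.1 FPKM. Their median log2 difference was 0.96, and Q808-2 was high in the fibrillar collagen gene Col1a1, with 2.23, 2.41 and 0.766 FPKM in Con. and 2.54 and 9.28 FPKM in Q808. Of the 11 meningeal markers 10 were called with the set block, 10 in the low-striatum libraries alone and 10 with the set block after quantile normalization, 6 without Q808-1, and 1 in each of the fits without Con.-1, Con.-3 or Q808-2. The meninges had been removed in the dissection, and the part of remaining meninges in the matrix genes was not tested. The matrix count was 4 without Con.-2, 5 without Con.-1 and 5 without Q808-1, 5 after quantile normalization, and 15 with the set block.

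Choroid plexus and ependymal markers had 0 of 13 and 0 of 7 genes called in limma, and 0 at an unadjusted p-value under 0.05. In the choroid plexus list the groups spread over the whole range, since Q808-2 had the highest and Con.-3 and Q808-1 the lowest values, as for Ttr above. With the set block 10 of the 13 were called, all higher, and 12 in the low-striatum libraries alone, where the Q808 group is the single library Q808-2.

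**Figure D3:**
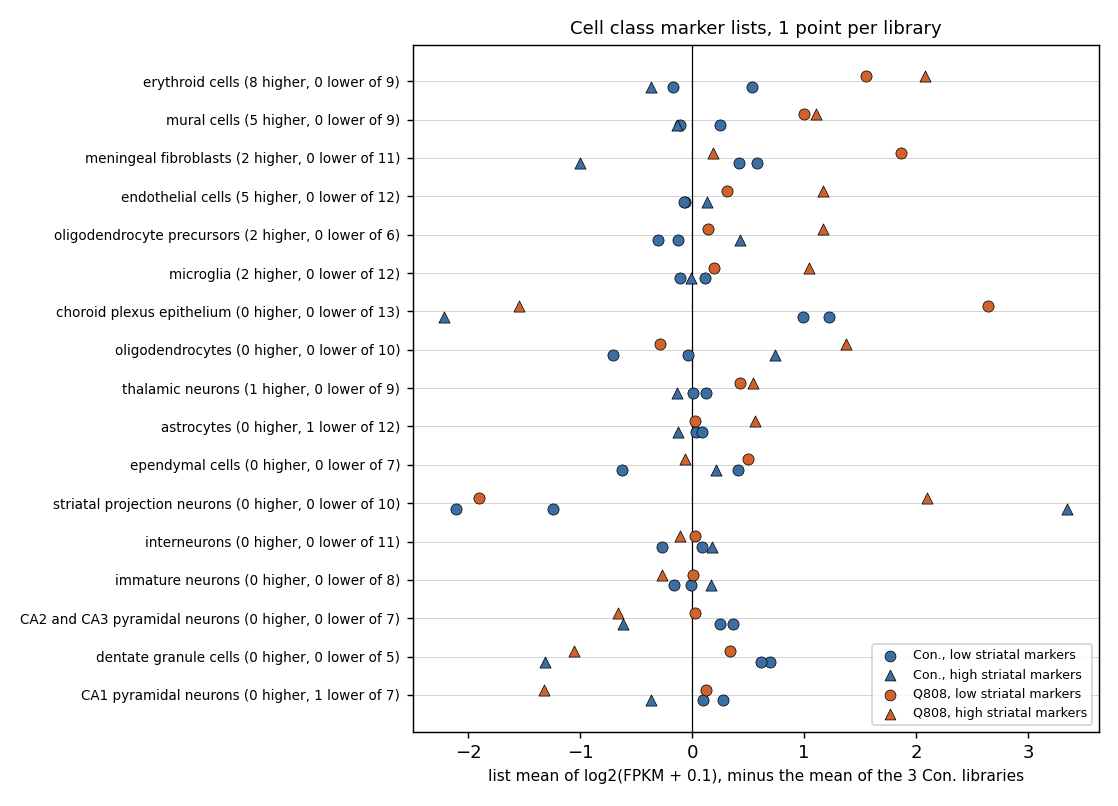
Mean log2(FPKM + 0.1) of each cell class list in 3 Con. and 2 Q808 libraries, minus the mean of the Con. libraries, with triangles for the high-striatum libraries and the number of genes called beside each name. Erythroid, mural, endothelial, microglial and thalamic lists are higher in both Q808 libraries than in all Con. libraries. The striatal, choroid plexus and dentate lists divide the libraries into the high- and low-striatum sets.

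Astrocyte, oligodendrocyte and precursor markers differed from each other. Of 12 astrocyte markers 11 had a difference above 0 without being called, and the median log2 difference was 0.40. The other was Sox9, a glial transcription factor, which was called lower at 7.21, 7.04 and 8.91 FPKM in Con. and 5.91 and 3.86 FPKM in Q808. Without any 1 of the Con. libraries 0 astrocyte markers were called, and 5 were without Q808-2. Gfap, the filament protein of reactive astrocytes, measured 335, 258 and 236 FPKM in Con., 450.5 and 309 FPKM in Q808 and 380.1, 355 and 315 FPKM in PTZ (log2 difference 0.45, SE 0.27, unadjusted p = 0.146). Of the 10 oligodendrocyte markers 0 were called in limma, 0 had an unadjusted p-value under 0.05, and they were higher in the high-striatum libraries than in the others of their group, with Mbp (myelin basic protein) at 2198, 1241 and 3316 FPKM in Con. and 7875 and 1691 FPKM in Q808. Among 6 markers of oligodendrocyte precursors, Pdgfra, the PDGF receptor that defines them, measured 9.87, 10.04 and 10.9 FPKM in Con. and 19.4 and 16.4 FPKM in Q808 (log2 difference 0.79, SE 0.16, unadjusted p = 0.0029). Cspg4 (NG2) was called too, at 3.37, 3.53 and 3.90 against 8.03 and 4.60 FPKM, and not after quantile normalization. Pdgfra remained called in all 19 alternative fits.

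Neuronal genes showed few differences that passed the test, in short lists beside 3.46% of all genes tested. At that share few or no calls would fall in lists of 7 to 16 genes. In limma 0 of 13 GABA-A receptor subunits were called, 0 of 8 genes of GABA synthesis, transport and breakdown, 0 of 15 ionotropic and 0 of 7 metabotropic glutamate receptors, 0 of 8 voltage-gated sodium channels and 0 of 16 genes of presynaptic release. In these 6 lists 0 genes had an unadjusted p-value under 0.05 at any fold. Their median log2 differences were -0.44, 0.04, -0.12, -0.51, -0.41 and -0.18. Of the GABA-A receptor subunits 11 had a difference below 0 and 2 above. The spread between libraries was wide in some of these genes, with an SE of 0.525 for Gabra2 and 0.70 for Gria1. The absence of calls therefore does not show that these genes were at the vehicle level. The lower medians went with the Q808-1 library: Gabra2, a GABA-A receptor subunit, measured 75.7, 82.5 and 46.5 FPKM in Con. and 22.97 and 71.5 FPKM in Q808, and the AMPA receptor gene Gria1 132, 159 and 71.1 FPKM in Con. and 28.5 and 131 FPKM in Q808. Gad1, which makes GABA, stood at 69.2, 100.5 and 168 against 98.6 and 83.8 FPKM. Without Q808-2, so that Q808-1 stood alone, 5 GABA-A receptor subunits, 5 ionotropic and 2 metabotropic glutamate receptors, 4 sodium channels and 6 genes of presynaptic release were called, in a fit that called 11.5% of the genes tested. Of 21 potassium and HCN channels, Kcnd2, which carries the dendritic A-type current, was called lower at 40.4, 39.4 and 49.0 FPKM in Con. and 16.1 and 32.9 FPKM in Q808. Pou3f1, a transcription factor of CA1 pyramidal neurons, was called lower as well, at 21.3, 18.4 and 23.4 against 9.97 and 16.7 FPKM. Markers of dentate granule cells, CA2 and CA3 neurons, interneurons and immature neurons had 0 genes called of 5, 7, 11 and 8 in limma, and 0 at an unadjusted p-value under 0.05. Of 9 thalamic markers 1 was called, Shox2, which was higher, and the median log2 difference was 0.39. The thalamic list mean of log2(FPKM + 0.1) was 1.18, 1.06 and 0.913 in Con. and 1.60 and 1.47 in Q808.

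Activity-induced genes were called in 2 cases. Fosb, an immediate early gene whose protein builds up with repeated stimulation, measured 2.72, 3.15 and 10.1 FPKM in Con. and 24.0 and 12.6 FPKM in Q808 (log2 difference 1.95, SE 0.63, unadjusted p = 0.0239), with 58.4, 265 and 5.21 FPKM in PTZ. It was the 1 gene of 16 on the immediate early list to be called, and Egr1, for example, was at 30.4, 41.5 and 148 FPKM in Con. and 61.5 and 75.3 FPKM in Q808. Con.-3 was the highest Con. library in Fos, Egr1, Egr2, Arc and Nr4a1. Without Con.-3, 9 of the 16 were called, and 10 in the low-striatum libraries alone. On the list of 13 late activity-induced genes, Gadd45g, a DNA damage and demethylation factor, was called at 10.2, 6.31 and 8.76 against 18.3 and 14.7 FPKM, with 28.4, 46.8 and 13.7 FPKM in PTZ.

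Genes induced by glucocorticoids, the stress hormones of the adrenal, were called higher in 5 of 13 cases and lower in none, with a median log2 difference of 0.66. Besides Cdkn1a these were Errfi1, a brake on the EGF receptor, at 4.81, 5.35 and 5.32 FPKM in Con. and 11.0 and 9.06 FPKM in Q808, and Pdk4, which turns cells from glucose to fat oxidation, at 3.85, 5.69 and 8.55 against 28.6 and 11.0 FPKM. Sgk1, a kinase that regulates ion channels, stood at 41.1, 45.9 and 57.2 against 158 and 69.5 FPKM, and Ddit4 was called too. Fkbp5, the classical target of the receptor, was at 20.0, 19.8 and 19.2 FPKM in Con. and 11.7 and 16.2 FPKM in Q808 (log2 difference -0.51, unadjusted p = 0.0332), within 1.5-fold. It and Zbtb16 (log2 difference -0.15, unadjusted p = 0.773) were the 2 members below Con., and 11 were above. Q808-1 was the higher of both libraries in Sgk1 and Pdk4. The count was 2 without Con.-1, 3 without Con.-2 and 3 without Q808-1.

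Several groups stayed near the vehicle level. Of these, the cholesterol and oxidative stress lists had means in both Q808 libraries slightly above every Con. mean. The 80 tested subunits of oxidative phosphorylation had a median log2 difference of 0.01 and 1 called, Cox7a2l2, which was lower. Among 38 proteasome subunits, 73 mitochondrial ribosomal proteins, 20 genes of cholesterol synthesis, 14 of the oxidative stress response and 16 of the circadian clock 0 were called, with medians between -0.10 and 0.18, and at an unadjusted p-value under 0.05 in limma there were 2 of these genes. The 99 cytosolic ribosomal protein genes had a median of 0.29 and 3 called higher, Rpl10l3, Rpl35a and Rpl30l2, which are copies whose reads cannot be assigned with certainty, and 29 were called with Q808-2 left out. Of 12 heat shock chaperones Hspb1, a small heat shock protein, was called at 10.1, 7.18 and 5.49 against 11.3 and 14.8 FPKM. Of 10 insulin-like growth factor genes Igfbp6, a binding protein of IGF2, was called at 6.71, 7.42 and 7.83 against 13.2 and 15.2 FPKM. In the renin-angiotensin list, the angiotensin-cleaving peptidases Enpep and Anpep were called higher, both below 2.1 FPKM in all Con. and Q808 libraries. After quantile normalization 0 genes of this list were called in limma, and Enpep and Anpep had unadjusted p-values of 0.0725 and 0.0923. Over the 19 alternatives Enpep was called in 12 and Anpep in 7, and the fit of genes averaging at least 1 FPKM held neither. Slc2a4, an insulin-regulated glucose transporter, was called higher, and Slc2a13, a myo-inositol transporter, was called lower at 31.4, 34.9 and 38.4 against 17.9 and 28.9 FPKM.

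Of the lower genes, the furthest from Con. after GeneID100910575 was a cyclophilin copy. Ppial4d, annotated as a TRIMCyp-like cyclophilin copy, measured 183, 174 and 133 FPKM in Con., 24.3 and 29.6 FPKM in Q808 and 113, 143 and 161 FPKM in PTZ (log2 difference -2.59, SE 0.20, unadjusted p = 2.48e-05). Cyclophilin A itself (Ppia) was at 932, 872 and 683 FPKM in Con. and 682 and 832 FPKM in Q808 and was not called, and reads of such copies cannot be assigned with certainty. Smad3, which carries the TGF-beta signal to the nucleus, stood at 17.5, 17.4 and 17.0 FPKM in Con. and 8.15 and 12.9 FPKM in Q808 (log2 difference -0.75, SE 0.22, unadjusted p = 0.0168). Hes5, a Notch target that keeps progenitors undifferentiated, was at 12.7, 8.99 and 10.05 FPKM in Con. and 6.98 and 5.72 FPKM in Q808. The replication factor Gins3 measured 2.04, 2.28 and 2.94 against 1.05 and 1.23 FPKM, the ubiquitin ligase Marchf4 11.4, 10.8 and 12.6 against 5.20 and 8.33 FPKM, and Stk26, a kinase of vessel and polarity signaling, 2.03, 1.74 and 2.48 against 1.17 and 0.98 FPKM. Rbm24 and Tspyl5 completed the 8 lower genes with the smallest p-values. Prodynorphin (Pdyn), the precursor of dynorphin peptides, and the calcineurin subunit Ppp3ca were called lower and were named after their values were seen: Pdyn was at 35.0, 37.3 and 71.4 against 21.3 and 22.9 FPKM, and Ppp3ca at 356, 314 and 342 against 179 and 247 FPKM. Of the 61 lower genes, 3 were called in each of the 5 fits that left out 1 library, and of the 479 higher genes 101 were.

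The 23 hub genes of the study, which its authors chose on these libraries for changing in PTZ against Con. and again in Q808 against PTZ, are not independent evidence of a direction. In Q808 against Con. 3 of them were called, Hbb, Alas2 and Shox2, all higher, and 13 were within 1.5-fold, while in PTZ against Con., which shares the Con. libraries, 12 were called higher and 8 lower. The count in Q808 against Con. was 8 in the low-striatum libraries alone, 6 without Con.-3, 5 without Q808-1 and 5 with the set block. Shox2, a homeobox gene of thalamic neurons, was at 0.627, 0.377 and 0.226 FPKM in Con., 1.29 and 1.30 FPKM in Q808, and 0, 0 and 0.105 FPKM in PTZ. Fbl, the nucleolar methyltransferase fibrillarin, measured 32.5, 26.9 and 27.5 FPKM in Con., 22.0 and 25.7 FPKM in Q808 and 59.6, 70.05 and 33.3 FPKM in PTZ. Fhl2, a LIM domain cofactor, measured 5.18, 4.78 and 5.34 FPKM in Con., 4.84 and 5.94 FPKM in Q808 and 9.58, 12.2 and 7.21 FPKM in PTZ. Sox11, a factor of immature neurons, measured 0.868, 1.75 and 3.50 FPKM in Con., 1.56 and 1.31 FPKM in Q808 and 20.9, 14.2 and 2.24 FPKM in PTZ. Ace, the angiotensin converting enzyme, was at 6.24, 8.34 and 15.5 FPKM in Con., 11.4 and 24.5 FPKM in Q808 and 3.81, 3.60 and 6.13 FPKM in PTZ, and Enpp2 (autotaxin), a choroid plexus gene, at 162, 152 and 107 FPKM in Con. and 165 and 396 FPKM in Q808, with the highest value in the Q808-2 library that also had the highest Ttr. For Ace the Q808 and Con. libraries overlapped, and for Enpp2 they did not (unadjusted p = 0.0802). The difference between the Q808 and PTZ groups was not tested here.

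The excess of higher over lower genes depended on the scaling between libraries. As deposited, 88.7% of the 540 called genes were higher. Scaling to the upper quartile gave 88.0% of 558, to the same FPKM sum 83.1% of 498, by the median ratio 79.4% of 500, and quantile normalization 64.1% of 429 (2.75% of the genes tested), with 275 higher (1.76%) and 154 lower (0.988%). Quantile normalization kept 270 of the 479 higher genes and all 61 lower ones, and 255 higher and 60 lower genes were called under all 4 of these scalings. The median shift was largest in genes of low level: with the deposited values the median log2 difference was 0.25 in the 3030 genes at 0.1 to 1 FPKM, 0.09 in the 6154 genes at 1 to 10 FPKM, -0.03 in the 5712 at 10 to 100 FPKM and -0.05 in the 697 above 100 FPKM. After quantile normalization these medians were 0.00, -0.01, -0.02 and -0.02. The genes called higher in these 4 ranges went from 142, 256, 76 and 5 to 60, 138, 71 and 6. Calls were thus lost at 1 to 10 FPKM as well as in the lowest range. Of the called genes, 155 had a mean FPKM under 1 over the 5 libraries, and their fold changes are understated by the pseudocount of 0.1. Q808-2 had 5666 genes listed at 0, the fewest of the 8 libraries, and Q808-1 had 5829, against 5849, 5902 and 6023 in Con., and the part of detection in the low-level shift was not tested. Under quantile normalization the list medians went from 1.93 to 1.84 for erythroid genes, from 1.03 to 0.84 for mural markers, from 0.75 to 0.63 for matrix genes, from 0.62 to 0.41 for inflammatory genes and from 0.71 to 0.68 for endothelial markers. The genes called in these lists went from 8, 5, 8, 7 and 5 to 8, 4, 5, 5 and 3. For complement genes the median was 0.64 under both and the count fell from 5 to 3, and for glucocorticoid-induced genes the median went from 0.66 to 0.59 and the count from 5 to 6.

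**Figure D4:**
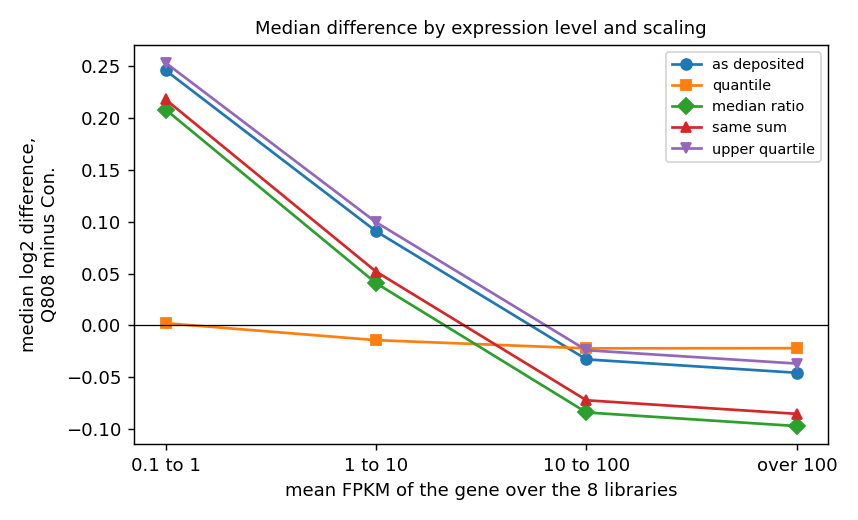
Median log2 difference between Q808 and Con. (y axis) for genes in 4 ranges of mean FPKM over the 8 libraries (x axis), under 5 scalings of the libraries. The medians fall from the lowest to the highest range with every scaling by 1 factor per library, from 0.25 to -0.05 as deposited, and are nearly level after quantile normalization.

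The division of the libraries by striatal markers also moved the count. With the set as a block 1019 genes were called (6.53% of those tested), 849 higher (5.44%) and 170 lower (1.09%), among them 516 of the 540. In the low-striatum libraries alone, with Q808-2 as the single Q808 library and assumed to vary like the others, 735 genes were called (4.71%), 610 higher (3.91%) and 125 lower (0.802%). Leaving out Con.-2 gave 279 genes, Q808-1 351 and Q808-2 1799, so that the count rests on which rats are used. All 540 called genes had the same direction in the low- and the high-striatum libraries, as had 9056 of the 15593 genes tested. In 539 of the 540 the groups did not overlap, as in 3125 of those tested (20%). The calls were made on these same libraries by a rule that favors separate groups. Both counts therefore largely follow from the calling and are not separate support for it. A total of 104 genes were called in each of the 5 fits that left out 1 library and 62 in all 19 alternative fits, including Bad, Cdkn1a, Maff, Fn1, Hbb, Alas2, Hba-a3, Vwf, Tagln, Tpm4, Flna, Tinagl1, Nfkbia, Il1r1, Vtn, Col6a1, Lamb2, Bgn, Pdgfra and Igfbp6 among the higher and Ppial4d and GeneID100910575 as the lower ones. Genes with a mean under 1 FPKM over the 8 libraries were absent from 1 of these fits and could not reach all 19.

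**Figure D5:**
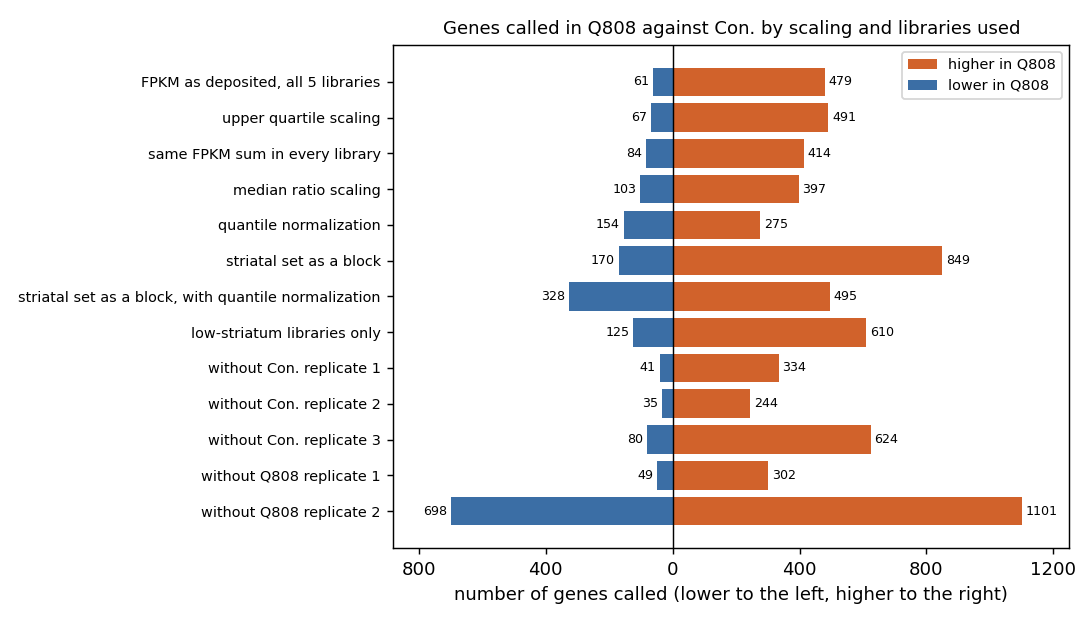
Number of genes called higher (to the right) and lower (to the left) in Q808 against Con. as deposited and under 4 other scalings. Further bars are for the striatal set as a block, this block after quantile normalization, the low-striatum libraries alone and each library left out. Higher genes outnumber lower ones in every setting shown. The counts are 479 against 61 as deposited, 275 against 154 after quantile normalization and 495 against 328 with the set block after quantile normalization.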

How the data were processed

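Total RNA of the hippocampus was sequenced from 1 rat per library. Reads were trimmed with Trimmomatic, and the authors deposited FPKM per gene from Cufflinks, 22601 genes in each of 8 libraries. The labels also name HISAT2, HTSeq, DESeq, Bowtie2, StringTie and SAMtools, and the genome build is not given in the sources used here. Depth is known only in relation to the other libraries, from the steps between low FPKM values, and counting error could not be computed, so precision rests on the spread between rats. Gene symbols of 20633 genes came from the RefSeq table of GRCr8.

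Q808 (n = 2) was compared with Con. (n = 3) on log2(FPKM + 0.1) by limma 3.58.1 in R 4.3.3, a two-sided moderated test with a trend on the 5 libraries, and p-values were adjusted by Benjamini-Hochberg over 15593 genes. Fold changes are on this scale, which understates low genes. Summaries were made in Python 3.11.15 with numpy 2.4.6 and pandas 2.3.3, and figures with matplotlib 3.10.9. An exact permutation test of 3 against 2 libraries cannot pass 0.05 and was not used. The fit was tested on simulated data.

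The 45 gene lists (17 of cell classes, 28 of functions), their members and the comparison were chosen with earlier results of these data known, and list medians and counts carry no test of their own. Genes were named if their adjusted p-value was under 0.05, if they were among the 12 higher or 8 lower called genes of smallest p-value with separate groups, one direction in both striatal sets, a mean of at least 1 FPKM and a gene symbol of their own, if they were hub genes, or as the called members of a list with the smallest p-values (up to 4), or its 2 most abundant members. Other genes named within a list were members of it picked to show its range, after their values were seen. The striatal sets were defined from the striatal list. The 19 alternative fits were 4 scalings, pseudocounts of 1 and 0.01, other filters, all 3 groups in the fit, and limma without the trend. They also held blocks by set (also after quantile normalization) and by replicate number, the low-striatum libraries alone, and each library left out. The threshold of more than 2-fold was applied to the main fit and is not among the 19, so a gene called in all 19 can be below 2-fold. The authors' counts were not used here. Some genes are not reported here by name.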

Additional observations from a re-analysis of the deposited data

Results flagged for a closer look

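For 17 lists the difference between Q808 and Con. had opposite signs in the low-striatum libraries (Con.-1, Con.-2 and Q808-2) and in the high-striatum libraries (Con.-3 and Q808-1). In 12 of them Q808-2 lay outside both of its Con. libraries, and in 5 between them. The sets were defined from the data and hold 1 Q808 library each, so the difference between them was not tested. Differences of list means of log2(FPKM + 0.1) are given first for the low- and then for the high-striatum libraries. Immediate early genes had 0.87 and -0.3, late activity-induced genes 0.09 and -0.55, and GABA synthesis, transport and breakdown 0.27 and -0.25. Dentate granule cell markers had -0.32 and 0.26, immature neuron markers 0.1 and -0.44, astrocyte markers -0.04 and 0.68, and ependymal markers 0.6 and -0.27. MHC and antigen processing genes had 0.38 and -0.2, circadian clock genes 0.2 and -0.28, and glucose and monocarboxylate transporters 0.3 and -0.03. Mitochondrial ribosomal proteins had -0.07 and 0.02, and oxidative phosphorylation subunits -0.06 and 0.22. The 5 lists with Q808-2 between Con.-1 and Con.-2 were metabotropic glutamate receptors with 0.13 and -0.93, ionotropic glutamate receptors with 0.062 and -0.51, potassium and HCN channels with 0.07 and -0.44, interneuron markers with 0.11 and -0.29, and presynaptic release genes with 0.0056 and -0.29.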

How the results depend on the processing

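The count of 540 called genes was 340 with a pseudocount of 1, 257 at more than 2-fold, 1019 with the striatal set as a block and 823 with the same block after quantile normalization. Leaving out 1 library gave 279 to 1799. The cause of these shifts was not tested. The replicate numbers belong to different rats and were not taken to pair the libraries. Deviations from the group mean had correlations of -0.38 and 0.53 in the 2 same-numbered pairs. With 2 Q808 libraries these deviations mirror each other, so the correlations cannot test a pairing. With the replicate block 1076 genes were called. The count of genes with an adjusted p-value under 0.05, which was 1, became 2 with the set block and 2 with the set block after quantile normalization. It became 0 with a pseudocount of 1, with all genes above 0, with the same FPKM sum, without the trend, with the replicate block and in the low-striatum libraries alone, and it was 0 to 0 with 1 library left out. Of 71 named genes that were called, none changed direction under any alternative, and 32 were no longer called without Q808-1, 29 without Con.-1 and 21 in the low-striatum libraries alone.

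The reversals were all in hub genes that were not called. With quantile normalization the log2 difference was -0.108 for Faap100 and -0.0109 for Fhl2, and with set block and quantile normalization -0.062 for Faap100. With the replicate block it was -0.0203 for Doc2a, -0.033 for Faap100, 0.19 for Sox11 and 0.227 for Wdr54. In the low-striatum libraries alone it was -0.0703 for Ccdc88b, 0.0692 for Sox11 and 0.31 for Wdr54. With 1 library left out it ranged from -0.0235 to 0.557 for Ccdc88b, from -0.252 to 0.449 for Doc2a, from -0.033 to 0.134 for Faap100, from -0.0713 to 0.217 for Fhl2, from -0.321 to 0.0607 for Mvd, from -0.758 to 0.19 for Sox11 and from -0.273 to 0.227 for Wdr54. With 2 Q808 rats and no counts, small differences and low genes could not be resolved.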

Other observations

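By the authors' KEGG annotation of the deposited genes, examined after the values were seen and without a test, 12 of 47 tested genes of complement and coagulation cascades were called higher in Q808, 12 of 69 of ECM-receptor interaction, 20 of 182 of focal adhesion and 13 of 98 of leukocyte transendothelial migration, beside 3.07% of all genes, and none of these was called lower. Their median log2 differences were 0.61, 0.55, 0.19 and 0.34. The pathways share genes with each other and with the lists above. Of the GABAergic synapse pathway 1 of 82 genes was called and of the glutamatergic synapse 2 of 106, with medians of -0.12 and -0.02.

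In the PTZ libraries Pf4 measured 3.27, 1.39 and 1.81 FPKM and Cd163 0.0598, 0.0389 and 0.202 FPKM. Alb measured 4.71, 4.14 and 0.987 FPKM in PTZ, near its Q808 values in PTZ-1 and PTZ-2 and below the Con. range in PTZ-3. None of these genes was called in PTZ against Con. Tmem252, chosen after its values were seen, was called in both comparisons, at 0.445, 0.865 and 0.552 FPKM in Con., 3.83 and 2.48 FPKM in Q808 and 5.48, 6.10 and 2.08 FPKM in PTZ. Atf3, a stress-induced transcription factor also chosen after its values were seen, was at 0.483, 0.469 and 0.787 FPKM in Con., 1.54 and 3.15 FPKM in Q808 and 4.95, 9.03 and 0.696 FPKM in PTZ.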
